A study of Mus musculus with 2 samples.

Results

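The genes described here are the protein-coding parts of the mitochondrial respiratory chain and ATP synthase. They were chosen by symbol: every gene starting with mt-, Nduf, Sdh, Uqcr, Cox4, Cox5, Cox6, Cox7, Cox8 or Atp5, without the -ps pseudogenes. This gave 109 of the 27998 genes in the files. Of these, 13 are encoded by the mitochondrial genome (mt-encoded) and 96 by the nucleus. Of the 96 nuclear members, 94 had at least 1 UMI (unique molecular identifier, 1 counted transcript) in a kept cell, and Cox7b2 and Cox8c had none. By role, the nuclear members were 36 of complex I, 4 of complex II, 8 of complex III, 20 of complex IV, 15 of ATP synthase and 13 assembly or related factors, and the mt-encoded members were 7 of complex I, 1 of complex III, 3 of complex IV and 2 of ATP synthase.

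The respiratory chain passes electrons from NADH and succinate to oxygen through complexes I to IV and pumps protons across the inner mitochondrial membrane, and ATP synthase uses that gradient to make ATP. Complex II is made of nuclear subunits alone, whereas the other complexes join nuclear and mt-encoded subunits. The mitochondrial genome is transcribed inside the organelle as long precursors that are cut into separate RNAs, apart from 2 pairs of overlapping genes that stay on joint RNAs. Macrophages and microglia are known to shift the balance between oxidative phosphorylation and glycolysis with their state of activation.

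Single cells were sorted from the retinas of male CB6F1 mice aged 8 months with a Cx3cr1-YFP reporter, which makes microglia and related myeloid cells fluorescent; the mice of both groups carried it. The control library came from mice with no light damage. The light-damaged library came from mice that were dark-adapted overnight, had their pupils dilated, were exposed to LED light of 10 klux for 4 h and were left for 5 days. Each group was 1 pool of retinas from 5 to 8 mice and 1 library made with 10x Genomics 3' end chemistry, so no difference between the libraries has a replicate check, no test between groups was possible, and treatment, pool and library cannot be told apart. Light of this kind kills photoreceptors, the light-sensing cells of the outer retina, and serves as a model of retinal degeneration. The gate takes any cell that uses the Cx3cr1 promoter, and the sort does not separate resident from infiltrating cells.

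The control library kept 3875 cells with 19249502 UMIs and the light-damaged library 6449 cells with 54121745 UMIs, and 47 cell barcodes occurred in both. Over all barcodes, before doublets were removed, control cells held a median of 4846 UMIs and light-damaged cells one of 7351. The lowest totals were 1227 and 3059. All intervals are exact 95% intervals and cover counting error only. Levels are UMIs summed over the cells of a class in 1 library, as counts per 1000000 UMIs of those cells (CPM). Mitochondrial UMIs were not used to drop cells, since that would have filtered on the genes under study.

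Cells were divided by the 5 microglial genes P2ry12, Tmem119, Siglech, Gpr34 and P2ry13. Cells with at least 20 of these UMIs per 10000 were taken as microglia (3402 control and 4401 light-damaged cells). Cells with fewer than 10 (306 and 1249 cells) are called low-signature cells. The label other macrophages did not hold for all of them in the control library: 70 of the 306 control cells (22.9%) had under 20 UMIs per 10000 of 8 general myeloid genes, against 28 of 1249 light-damaged cells (2.24%). The summed level of 10 rod photoreceptor genes was 157 per 10000 in these control cells and 5.43 in the light-damaged ones, with none of the 10 genes at 0 in either. In microglia it was 6.33 and 1.36. The low-signature cells with at least 20 myeloid UMIs per 10000 (236 control and 1221 light-damaged cells) are called low-signature myeloid cells and are given beside each result; their rod level was 33.8 and 1.61 per 10000. The makeup of this group also differed, since 58.9% of the control cells but 11.8% of the light-damaged cells had at least 5 perivascular-macrophage UMIs per 10000, and 37.3% and 70.1% had at least 5 UMIs of monocyte and lesion-macrophage genes.

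Cells with at least 20 Lgals3 UMIs per 10000 were called Lgals3-high, after the gene of galectin-3, a glycan-binding protein of phagocytes. There were 7 in the control and 170 in the light-damaged library, and 160 of the 170 were also low-signature cells. These classes are ranges of a continuous score. In the light-damaged library 297 cells lay within 2 UMIs of the microglial limit, 198 within 1 UMI of the low-signature limit and 43 within 2 UMIs of the Lgals3 limit.

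The mt-encoded genes of the data are packed on a circular chromosome, and some neighbours share bases. The ends below show 2 of these overlaps, mt-Atp8 with mt-Atp6 and mt-Nd4l with mt-Nd4, because both upstream members departed from the rest in the results. The sequences come from the GRCm38 reference (mitochondrial chromosome, M, plus strand), are written 5′ to 3′ and carry the bases shared with the downstream gene in capitals.

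Last 90 bases of mt-Atp8 (chrM:7880-7969): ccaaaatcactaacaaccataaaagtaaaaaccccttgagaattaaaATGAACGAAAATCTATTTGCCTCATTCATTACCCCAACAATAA
First 60 bases of mt-Atp6 (chrM:7927-7986): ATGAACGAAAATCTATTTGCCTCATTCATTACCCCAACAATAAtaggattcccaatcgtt
Last 90 bases of mt-Nd4l (chrM:10084-10173): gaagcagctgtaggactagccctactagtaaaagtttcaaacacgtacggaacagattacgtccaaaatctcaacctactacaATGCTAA
First 60 bases of mt-Nd4 (chrM:10167-10226): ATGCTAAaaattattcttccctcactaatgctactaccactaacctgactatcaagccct

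mt-Atp8 (7766 to 7969) and mt-Atp6 (7927 to 8607) share 43 bases, and mt-Nd4l (9877 to 10173) and mt-Nd4 (10167 to 11544) share 7. Neighbours that are not shown here overlap too: mt-Atp6 and mt-Co3 meet at base 8607, and the end of mt-Nd5 (13565) lies inside mt-Nd6 (13552 to 14070), which is on the other strand. In each pair shown, the start codon of the downstream gene lies inside the upstream gene. On such a joint RNA, 3' end counting reads from the far end. The sources used here do not say how a read in the overlap was assigned.

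In microglia, mt-encoded transcripts made up a larger share of the UMIs of the light-damaged library. The 13 mt-encoded members summed to 16995 CPM in the control and 27355 CPM in the light-damaged library, a ratio of 1.61 (1.60 to 1.62). The nuclear members summed to 15492 and 17484 CPM, a ratio of 1.13 (1.12 to 1.13). The median cell had 1.55% mt-encoded UMIs in the control (interquartile range 1.14% to 1.96%) and 2.61% after light damage (2.09% to 3.19%). These 2 ranges did not meet. Those from the 5th to the 95th percentile of cells overlapped (0.579% to 3.17% and 1.35% to 4.34%). The median cell had 1.52% and 1.67% nuclear-member UMIs, with interquartile ranges that overlapped (1.27% to 1.73% and 1.47% to 1.88%). There were 1.10 mt-encoded UMIs per nuclear-member UMI in control and 1.56 in light-damaged microglia.

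**Figure D1:**
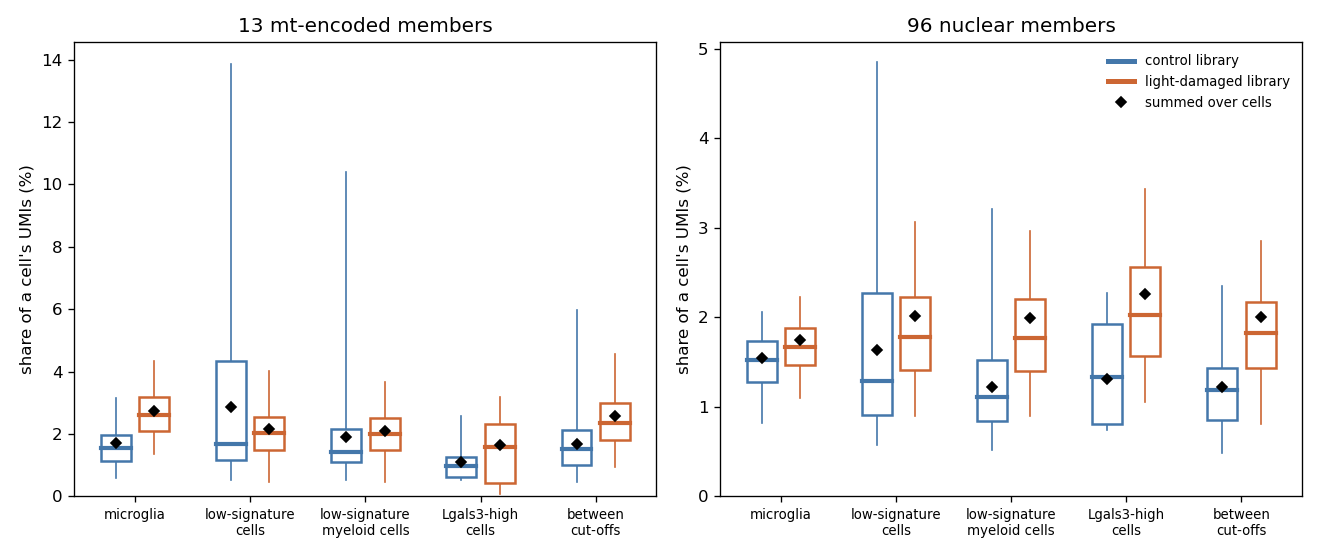
Share of a cell's UMIs (%, y axis) from the 13 mt-encoded members (left) and the 96 nuclear members (right) by cell class and library; boxes span the interquartile range of cells, thick lines are medians, thin lines run from the 5th to the 95th percentile and diamonds give the share of summed UMIs. The microglial median of the mt-encoded share is 1.55% in the control and 2.61% in the light-damaged library, while the nuclear medians are 1.52% and 1.67%; the control low-signature cells have the longest upper range.

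Of the 12 mt-encoded members that reached 20 CPM in 1 or both libraries, 6 were over 1.5-fold higher in light-damaged microglia and 1 was over 1.5-fold lower. Of all 5227 genes measured in this way, 5.34% were over 1.5-fold higher and 6.75% over 1.5-fold lower. The median log2 ratio of the mt-encoded members was 0.61, against -0.02 over all genes.

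The mt-encoded subunits of complex IV, which hands electrons to oxygen, were all higher in light-damaged microglia. mt-Co1, the catalytic subunit, stood at 2789 CPM in the control and 4419 CPM after light damage, 1.58-fold higher (1.57 to 1.60). mt-Co2, which receives the electrons from cytochrome c, was at 1726 and 2968 CPM (1.72-fold, 1.70 to 1.74), and mt-Co3, the third core subunit, at 3075 and 5213 CPM (1.70-fold, 1.68 to 1.71). mt-Cytb, the mt-encoded part of complex III, was at 1741 and 2814 CPM (1.62-fold, 1.60 to 1.64).

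The proton channel subunit of ATP synthase, mt-Atp6, had the highest ratio of the mt-encoded members, at 3452 CPM in the control and 6144 CPM after light damage (1.78-fold, 1.76 to 1.80). Its upstream partner mt-Atp8, a small subunit of the same enzyme, had the opposite direction, at 84.8 and 52.6 CPM (1.61-fold lower, log2 ratio -0.69). The pair of complex I showed the same contrast. mt-Nd4, a proton-pumping subunit, was at 1120 and 1826 CPM (1.63-fold higher, 1.60 to 1.66), whereas mt-Nd4l was at 124 and 86.2 CPM, a log2 ratio of -0.52, short of 1.5-fold.

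The remaining complex I subunits of the mitochondrial genome lay between these. mt-Nd1 was at 1833 CPM in the control and 2445 CPM after light damage (1.33-fold) and mt-Nd2 at 640 and 935 CPM (1.46-fold). mt-Nd5 was at 143 and 175 CPM (1.23-fold, 1.17 to 1.29). mt-Nd3, at 259 and 268 CPM, differed by no more than counting error allows (1.04-fold, 0.998 to 1.07). mt-Nd6, which lies on the other strand, was under 20 CPM in both libraries, at 9.33 and 8.95.

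**Figure D2:**
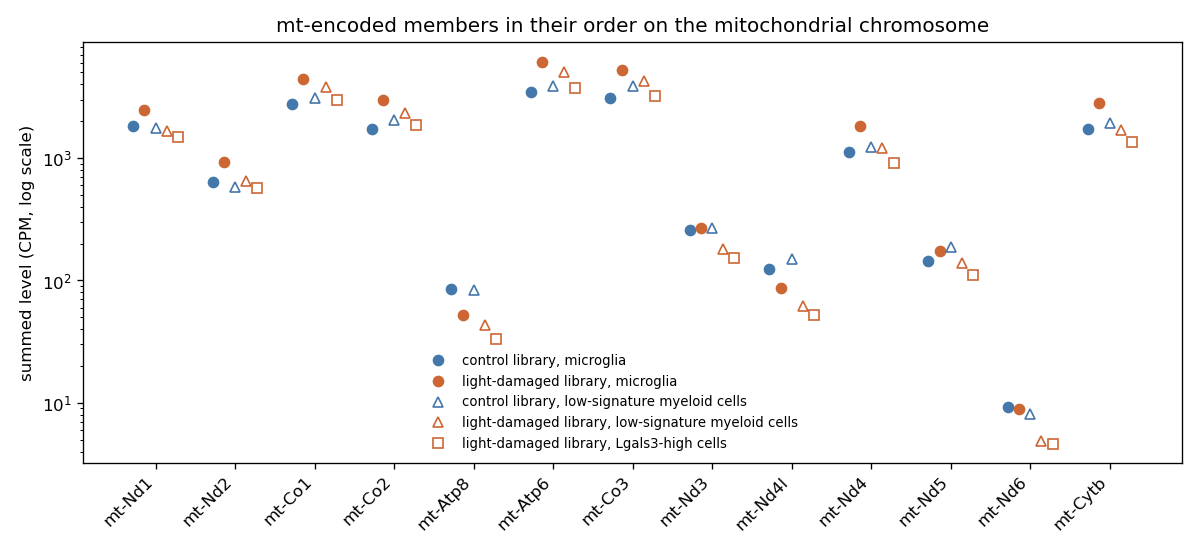
Summed level (CPM, log axis) of each of the 13 mt-encoded members, in chromosome order, for microglia (filled circles), low-signature myeloid cells (open triangles) and light-damaged Lgals3-high cells (open squares), with the control library in blue and the light-damaged library in orange. The orange circle lies above the blue one for mt-Co1, mt-Co2, mt-Co3, mt-Atp6, mt-Nd4 and mt-Cytb and below it for mt-Atp8 and mt-Nd4l.

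The share of the upstream gene within these 2 pairs was lower in the light-damaged library beyond counting error in microglia, low-signature myeloid cells and the cells between the limits. In microglia, mt-Atp8 gave 2.40% of the UMIs of its pair in the control (2.28% to 2.53%) and 0.848% after light damage (0.809% to 0.889%). mt-Nd4l gave 9.93% of its pair (9.53% to 10.3%) and 4.51% (4.34% to 4.67%). In low-signature myeloid cells the mt-Atp8 share was 2.11% and 0.855%, and the mt-Nd4l share 10.8% and 4.89%. Within the light-damaged library the classes were close to each other, from 0.848% to 0.886% for mt-Atp8 and from 4.51% to 5.41% for mt-Nd4l over microglia, low-signature myeloid, intermediate and Lgals3-high cells. In the control library the first 3 of these classes had from 1.49% to 2.40% and from 9.24% to 10.8%, so their ranges did not meet those of the light-damaged library. The 7 control Lgals3-high cells had only 2 mt-Atp8 and 4 mt-Nd4l UMIs, and their shares (1.90%, 0.232% to 6.71%, and 11.8%, 3.30% to 27.5%) had intervals that overlapped those of the light-damaged ones.

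Some counts of mt-encoded members are uncertain because of copies in the nuclear genome. Over the last part of the transcript, where 3' end reads fall, mt-Co1 and mt-Co2 shared 100% of their 50-base words with other annotated genes, mt-Co3 99.6%, and mt-Atp6, mt-Nd3 and mt-Nd4l about as much (98.8% each). mt-Nd2 shared 31.9% and mt-Nd5 1.99%, and mt-Nd1, mt-Nd4, mt-Nd6, mt-Cytb and mt-Atp8 shared none. Members over 1.5-fold higher in light-damaged microglia occurred among those that shared 98.8% or more (mt-Co1, mt-Co2, mt-Co3 and mt-Atp6, but not mt-Nd3 or mt-Nd4l) and among those that shared none (mt-Nd4 and mt-Cytb, but not mt-Nd1, mt-Nd6 or mt-Atp8). The part of shared reads in these ratios was not tested. The sources used here do not say how reads that match several genes were treated.

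The mt-encoded share of microglia was higher in the light-damaged library at every depth that both libraries covered. Among cells with 3059 to 5000 UMIs it was 1.49% in 1198 control cells and 2.66% in 1030 light-damaged cells. Among cells with 7000 to 10000 UMIs it was 1.79% and 2.76%. It was also higher at every level of the microglial signature: 1.86% and 2.60% in cells with 20 to 30 signature UMIs per 10000, and 1.51% and 2.63% in cells with 80 or more. The nuclear share differed by an amount that varied with both measures. It was 1.45% and 1.51% in the cells with 3059 to 5000 UMIs, 1.69% and 1.76% in those with 7000 to 10000 and 1.70% and 1.98% in those with 10000 or more (47 and 678 cells). By signature it was 1.41% and 1.86% at 20 to 30 UMIs per 10000 and 1.50% and 1.51% at 80 or more. Malat1, an abundant RNA kept in the nucleus, was at 26951 CPM in control and 10883 CPM in light-damaged microglia, and rod transcripts were 6.33 and 1.36 per 10000; their part in the mt-encoded share was not tested, apart from leaving out cells with 5 or more rod UMIs per 10000, after which the log2 ratio of the mt-encoded sum was 0.72 against 0.69.

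Nuclear members differed little between the libraries in microglia. Of the 83 measured, 3 were over 1.5-fold higher in the light-damaged library and 0 were over 1.5-fold lower (all genes: 5.34% and 6.75%), and 53 of the 83 had a ratio above 1. Their median log2 ratio was 0.04, with a range from -0.49 (Ndufa5, an accessory subunit of complex I) to 0.72. The 3 were Atp5g3 and Atp5g2, 2 of the 3 genes for subunit c, which forms the rotating ring of ATP synthase, and Cox7a2l, which helps to join complexes III and IV into supercomplexes.

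Atp5g3 was at 82.5 CPM in control and 136 CPM in light-damaged microglia (1.64-fold, 1.55 to 1.75). Atp5g2 was at 373 and 563 CPM (1.51-fold, 1.47 to 1.56), close enough to 1.5-fold that some other settings put it below, and it shared 55.5% of its last 50-base words with other genes. The third ring gene, Atp5g1, was at 190 and 187 CPM. Cox7a2l was at 585 and 931 CPM (1.59-fold, 1.56 to 1.63).

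The subunits at the core of the complexes were close to equal between the libraries in microglia. In complex I, Ndufv1, which binds NADH, had a log2 ratio of 0.03 (53.5 and 54.7 CPM). In complex II, the flavoprotein Sdha was at 125 and 112 CPM (log2 ratio -0.16) and the iron-sulfur subunit Sdhb at 134 and 144 CPM (0.10). In complex III, Uqcrc1, a core protein, was at 150 and 152 CPM (0.02), Uqcrfs1, the Rieske iron-sulfur protein, at 125 and 165 CPM (0.40) and the hinge protein gene Uqcrh at 440 and 656 CPM (0.58), just inside the 1.5-fold limit.

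Complex IV and ATP synthase had the highest ratios of sums among the nuclear parts. Complex III was close to ATP synthase, at 1713 and 1952 CPM (1.14-fold, 1.12 to 1.16), and their intervals overlapped. The complex IV sum was 4538 CPM in the control and 5484 CPM after light damage (1.21-fold, 1.20 to 1.22). Within it, Cox4i1, a subunit that regulates the enzyme, was at 837 and 1149 CPM (log2 ratio 0.46), Cox5a at 132 and 191 CPM (0.54), Cox8a at 593 and 746 CPM (0.33), Cox6a1 at 327 and 335 CPM (0.04), and Ndufa4, now counted as a subunit of this complex, at 261 and 272 CPM (0.06). The ATP synthase sum was 1.16-fold higher (1.15 to 1.17), yet its catalytic subunits Atp5a1 (285 and 307 CPM) and Atp5b (427 and 432 CPM) had log2 ratios of 0.11 and 0.02. Nuclear complex I summed to 4567 and 4756 CPM (1.04-fold) and complex II to 413 and 427 CPM (1.03-fold), while the assembly and related factors were slightly lower, at 289 and 259 CPM (log2 ratio -0.16).

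**Figure D3:**
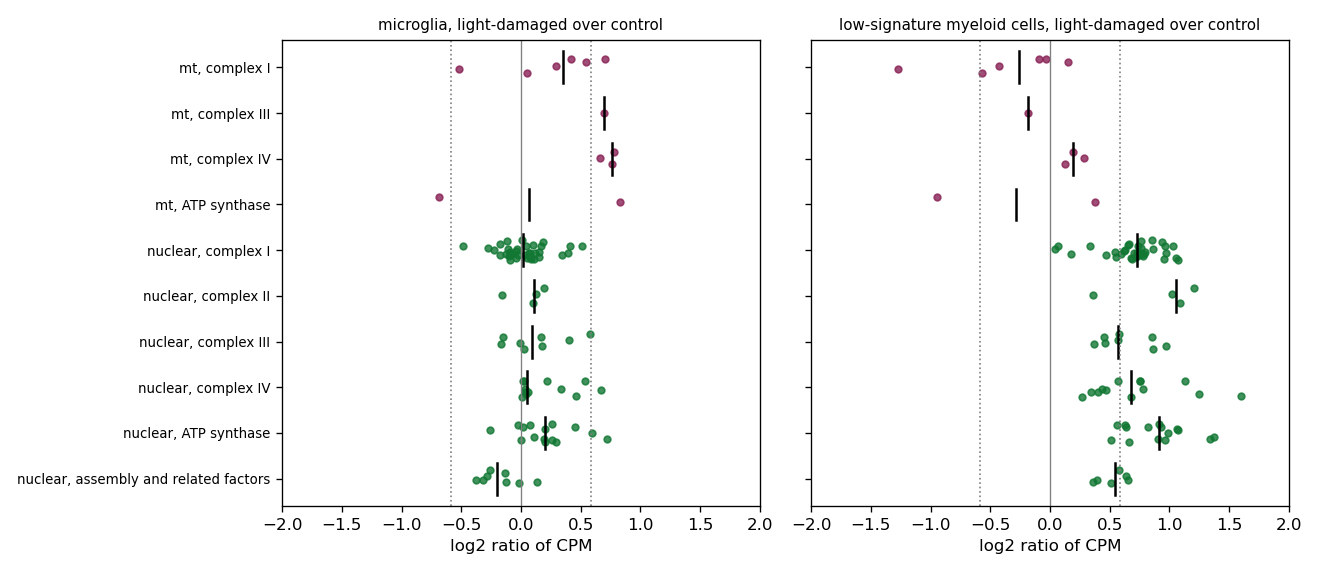
Log2 ratio of CPM, light-damaged over control (x axis), for each measured member by complex (rows), mt-encoded in purple and nuclear in green, in microglia (left) and low-signature myeloid cells (right); black bars are medians and dotted lines mark 1.5-fold. In microglia the nuclear members gather around a median of 0.04 and the mt-encoded ones around 0.61, while in low-signature myeloid cells the nuclear median is 0.73 and the mt-encoded one -0.06.

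Outside the members, other mitochondrial genes of microglia also showed few differences past 1.5-fold. Of 20 measured assembly factors and carriers of the chain, 0 were higher and 2 lower: the complex IV assembly gene Cox16 (24.8 CPM in control and 7.75 in light-damaged microglia) and the copper chaperone gene Cox17 (147 and 85.3). Of 26 measured genes of import and the mitochondrial membranes, 1 was higher, the phosphate carrier Slc25a3, at 300 and 464 CPM, and 2 were lower, the import gene Tomm6 (52.0 and 25.2) and the prohibitin gene Phb (72.6 and 39.7). None of the 8 measured genes of mitochondrial transcription and biogenesis, the 18 of the tricarboxylic acid cycle, the 10 of dynamics and mitophagy or the 8 antioxidant and uncoupling genes passed 1.5-fold in either direction. Among 67 mitochondrial ribosomal protein genes, 1 was lower (Mrps18a, 115 and 51.3 CPM). Tfam, which packs and transcribes the mitochondrial genome, was at 19.5 and 20.6 CPM.

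The low-signature cells gave a different picture, which depended on which of them were counted. Over all of them, the mt-encoded sum was lower in the light-damaged library, at 28775 CPM in 306 control cells and 21536 CPM in 1249 light-damaged cells (1.34-fold lower, 1.32 to 1.35), and the nuclear sum was higher, at 16309 and 20099 CPM (1.23-fold, 1.22 to 1.25). In the low-signature myeloid cells the mt-encoded sum was slightly higher instead, at 19158 and 21073 CPM (1.10-fold, 1.09 to 1.11), and the nuclear sum 1.63-fold higher (1.61 to 1.66), at 12241 and 19972 CPM. The direction of the mt-encoded difference thus changed when the cells with few myeloid UMIs were left out. The sum and the typical cell differed in sign over all low-signature cells: the median cell had 1.69% mt-encoded UMIs in the control and 2.02% in the light-damaged library, and the highest 5% of cells lay above 13.9% and 4.01%. In the low-signature myeloid cells the interquartile ranges were 1.10% to 2.17% and 1.47% to 2.52%, and overlapped. The nuclear difference of all low-signature cells was absent with a limit of 5 signature UMIs per 10000 in place of 10 (log2 ratio -0.0072, 175 control and 698 light-damaged cells).

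Over all low-signature cells, 15 of 83 measured nuclear members were over 1.5-fold higher and 4 over 1.5-fold lower in the light-damaged library, where 22.6% and 26.9% of all genes were. Of the 12 measured mt-encoded members, 0 were higher and 7 lower. In the low-signature myeloid cells, 57 of 82 measured nuclear members were over 1.5-fold higher and 0 lower, against 29.3% and 19.2% of all genes. All 82 had a ratio above 1, with a median log2 ratio of 0.73, while the median over all genes in this comparison was 0.22. Of the mt-encoded members, 0 were over 1.5-fold higher and 2 were lower, the upstream partners mt-Atp8 (83.9 and 43.6 CPM) and mt-Nd4l (150 and 62.2 CPM).

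The measured nuclear members of every complex had ratios above 1 in the low-signature myeloid cells, light-damaged over control. The number over 1.5-fold higher was 29 of 36 in complex I, 3 of 4 in complex II and 3 of 8 in complex III. It was 7 of 13 measured in complex IV and 13 of 15 in ATP synthase. Of all genes 29.3% were over 1.5-fold higher, and the share in complex III was near that. Complex II had the highest ratio of sums, at 264 and 497 CPM (1.88-fold, 1.69 to 2.10), followed by ATP synthase at 3139 and 5614 CPM (1.79-fold, 1.73 to 1.85); their intervals overlapped.

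The leading members came from several complexes. The highest ratio was that of Cox6a2, the heart and muscle form of the complex IV subunit Cox6a1, which rested on 9 control and 267 light-damaged UMIs (6.63 and 20.1 CPM, 3.04-fold, 1.58 to 6.71). The 9 control UMIs lay in 4 of 236 cells, 5 of them in 1 cell. The 267 lay in 147 of 1221 cells, 29.6% of them in 11 cells. The interval does not cover this unevenness between cells. Atp5o, a stalk subunit of ATP synthase, was at 94.2 CPM in control and 245 CPM in light-damaged cells (2.60-fold, 2.18 to 3.12), and Atp5g3 at 78.8 and 199 CPM (2.53-fold, 2.08 to 3.10). Cox5a, of complex IV, was at 150 and 358 CPM (2.38-fold, 2.07 to 2.75). The membrane anchor Sdhc of complex II was at 36.8 and 84.7 CPM (2.30-fold), its partner Sdhd at 53.0 and 107 CPM (2.03-fold), and Sdhb at 95.7 and 204 CPM (2.13-fold). Cox7b was at 115 and 251 CPM (2.18-fold), Atp5f1 at 159 and 335 CPM (2.11-fold), Ndufb6 at 48.6 and 102 CPM (2.11-fold) and Ndufb8 at 126 and 262 CPM (2.08-fold). Sdha, the catalytic partner of Sdhb, was at 78.8 and 101 CPM, a log2 ratio of 0.36.

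Other genes of these cells differed widely too, and of all genes 29.3% were over 1.5-fold higher and 19.2% lower. Of 68 measured mitochondrial ribosomal protein genes, 54 were over 1.5-fold higher and 1 lower (Mrps6, 56.7 and 19.8 CPM), with Mrpl51 (27.2 and 79.9 CPM), Mrpl42 (44.2 and 125) and Mrpl36 (28.7 and 80.4) leading. Of 18 tricarboxylic acid cycle genes, 9 were higher, such as fumarase (Fh1, 20.6 and 46.6 CPM), and 1 lower (Pdk1, 22.1 and 10.9). The mitochondrial chaperonins were lower: Hspd1 was at 1943 CPM in control and 423 CPM in light-damaged cells (4.59-fold lower) and Hspe1 at 3112 and 1033 CPM (3.01-fold lower). Malat1 was at 31248 and 11759 CPM. The share of cells with perivascular and lesion-macrophage genes differed as given above, and the part of makeup, Malat1 and chaperonins in the nuclear result was not tested.

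A narrower comparison used the low-signature cells with at least 5 UMIs per 10000 of genes of macrophages that lie along vessels (139 control and 144 light-damaged cells). The log2 ratio was 0.38 for the mt-encoded sum and 0.41 for the nuclear sum. Of 77 measured nuclear members, 19 were over 1.5-fold higher and 0 lower, where 19% of all genes were higher and 12.2% lower. The median log2 ratio of these members was 0.41, against 0.15 over all genes. Both values for the sums were above 0, as they were in microglia, where they were 0.69 and 0.17.

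The 4 nuclear members lower over all low-signature cells included Cox4i2 and Ndufa4l2. Cox4i2, an oxygen-sensitive form of Cox4i1, was at 44.4 CPM in the control and 4.32 CPM in the light-damaged library, and Ndufa4l2, a relative of Ndufa4 known from hypoxia and pericytes, at 22.2 and 2.31 CPM. Of the Ndufa4l2 UMIs of all kept cells, 94.9% in the control and 96.8% in the light-damaged library lay in 6 and 3 cells with at least 5 pericyte-marker UMIs per 10000. For Cox4i2 the shares of UMIs in cells with that pericyte level were 28.0% and 20.8%. In low-signature myeloid cells Cox4i2 was at 5.15 and 1.81 CPM. The other 2 were Ndufa4 (679 and 348 CPM), which in low-signature myeloid cells stood at 264 and 335 CPM, and the assembly factor Sdhaf1 (36.6 and 23.6 CPM).

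Within the light-damaged library, low-signature cells had fewer mt-encoded and more nuclear-member UMIs than microglia. The mt-encoded sum was 21536 CPM against 27355 in microglia (1.27-fold lower, 1.26 to 1.28), and the nuclear sum 20099 against 17484 (1.15-fold higher, 1.14 to 1.15). These classes share a library, so the differences between the libraries named above do not enter, but both are ranges of cells of 1 pool and there is no replicate. Depth differed between the classes, with a median of 9774 UMIs in low-signature cells and 6775 in microglia. In light-damaged microglia the nuclear share was 1.51% at 3059 to 5000 UMIs and 1.98% at 10000 or more. The mt-encoded share was 2.66% and 2.79%. Over all low-signature cells the nuclear share was 2.01% and the mt-encoded share 2.15%. The part of depth in the class differences was not tested. Rod transcripts in the low-signature cells of this library were 5.43 per 10000, and the low-signature myeloid cells alone gave 21073 and 19972 CPM.

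All 12 measured mt-encoded members were lower in the low-signature cells, 1 of them by over 1.5-fold (mt-Cytb, 1779 against 2814 CPM). Of 83 measured nuclear members, 7 were over 1.5-fold higher and 3 lower, against 13.3% and 17.6% of all genes. Their median log2 ratio was 0.25, against -0.07 over all genes, and 68 of the 83 had a ratio above 1. The nuclear members over 1.5-fold higher were the complex IV subunits Cox5a (358 against 191 CPM) and Cox5b (359 against 223), the complex I accessory subunits Ndufc1 (152 against 91.2), Ndufa12 (161 against 97.8), Ndufb6 (103 against 63.0) and Ndufb8 (263 against 174), and Atp5o (246 against 162).

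Cox7a2l was the most prominent exception. It stood at 576 CPM in low-signature cells and 931 CPM in microglia, 0.619 times the microglial level (0.603 to 0.634). Its levels ordered the classes of the light-damaged library: 931 CPM in microglia, 652 in the cells between the limits, 576 in low-signature cells and 396 in Lgals3-high cells. In the control library the order was 585 CPM in microglia, 487 between the limits and 428 in low-signature cells, and the 7 Lgals3-high cells had 18 UMIs (359 CPM). Cox5a went the opposite way in the light-damaged library, at 191, 297, 358 and 458 CPM in the same 4 classes. In the first 3 classes of the control it was at 132, 138 and 210 CPM. In low-signature myeloid cells it was at 150 CPM in the control and 358 CPM in the light-damaged library. The 7 control Lgals3-high cells, with 9 UMIs (180 CPM), lay below all low-signature cells of the control but above its low-signature myeloid cells. The other 2 lower members, the assembly factor Ndufaf7 (16.7 against 26.8 CPM) and Atp5sl (16.8 against 25.5), were near the 20 CPM limit.

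Lgals3-high cells of the light-damaged library extended this contrast. Their mt-encoded sum was 16400 CPM against 27355 in microglia (1.67-fold lower, 1.65 to 1.69), and their nuclear sum 22625 against 17484 (1.29-fold higher, 1.28 to 1.31). They had 0.725 mt-encoded UMIs per nuclear-member UMI, against 1.56 in microglia and 1.07 in low-signature cells. They were also the deepest class, with a median of 12422 UMIs and 3104.5 genes per cell, against 6775 and 2077 in microglia.

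Of 12 measured mt-encoded members 11 were over 1.5-fold lower in Lgals3-high cells and 0 higher, where 16.6% of all genes were over 1.5-fold lower and 32.8% higher. The lowest was mt-Cytb at 1342 against 2814 CPM (2.10-fold lower), followed by mt-Nd4 at 908 against 1826 CPM (2.01-fold lower). The exception was mt-Co1, at 2961 against 4419 CPM, 1.49-fold lower. mt-Atp8 and mt-Nd4l, whose ratio departed from their partners' between the libraries, were here 1.58-fold and 1.66-fold lower, as were mt-Atp6 (1.65-fold), mt-Co3 (1.63-fold) and mt-Nd1 (1.65-fold). This count rested on 61 cells with under 0.8% mt-encoded UMIs, described further on. The other 109 Lgals3-high cells were picked by having at least 0.8% mt-encoded UMIs, a limit chosen after the values were seen. Microglia and low-signature cells were not cut in this way, so the choice of cells raised the mt-encoded level of the 109. Among them only mt-Cytb of the 12 was over 1.5-fold lower than in microglia (1863 against 2814 CPM), where 25.7% of all genes were. Their mt-encoded sum was 22893 CPM, beside 21536 CPM in the low-signature cells.

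Of 85 measured nuclear members, 33 were over 1.5-fold higher and 4 lower in Lgals3-high cells (all genes: 32.8% and 16.6%), so the share that was higher, 38.8%, was near that of all genes. The median log2 ratio was 0.51, against 0.26 over all genes, and 78 of the 85 had a ratio above 1. By complex, 15 of 36 members of complex I, 2 of 4 of complex II, 2 of 8 of complex III, 5 of 13 measured of complex IV and 6 of 15 of ATP synthase were higher. In the 109 cells with at least 0.8% mt-encoded UMIs, 43 of 84 measured nuclear members were over 1.5-fold higher than in microglia and 3 lower, where 19.5% and 25.7% of all genes were. These cells were picked by their mt-encoded share, whereas the microglia were not.

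The complex I assembly factor Ndufaf4 had the highest ratio, at 43.9 against 16.4 CPM (2.68-fold, 2.15 to 3.31). Its level was uneven within the class, at 90.2 CPM in the 61 cells with under 0.8% mt-encoded UMIs and 21.8 CPM in the other 109. Cox5a was at 458 against 191 CPM (2.39-fold, 2.24 to 2.55), and its partner Cox5b at 443 against 223 CPM (1.98-fold). The accessory complex I subunits Ndufb6 (149 against 63.0 CPM), Ndufa12 (226 against 97.8), Ndufc1 (189 against 91.2) and Ndufab1 (212 against 103), the last also the acyl carrier protein of mitochondria, were 2.06-fold to 2.37-fold higher. Atp5g1 was at 389 against 187 CPM (2.08-fold), Sdhb at 269 against 144 CPM (1.87-fold) and Atp5b at 726 against 432 CPM (1.68-fold).

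Other members stood level or lower. Cox4i1 was at 1139 and 1149 CPM, Sdha at 112 in both classes and Cox8a at 798 and 746 CPM. The 4 lower were Cox7a2l (396 against 931 CPM, 0.426 times the microglial level, 0.398 to 0.454), the complex I subunit gene Ndufa6 (197 against 341), Uqcrh (382 against 656) and Atp5sl (16.5 against 25.5). Between light-damaged and control microglia, the first 3 of these had log2 ratios of 0.67, 0.41 and 0.58.

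**Figure D4:**
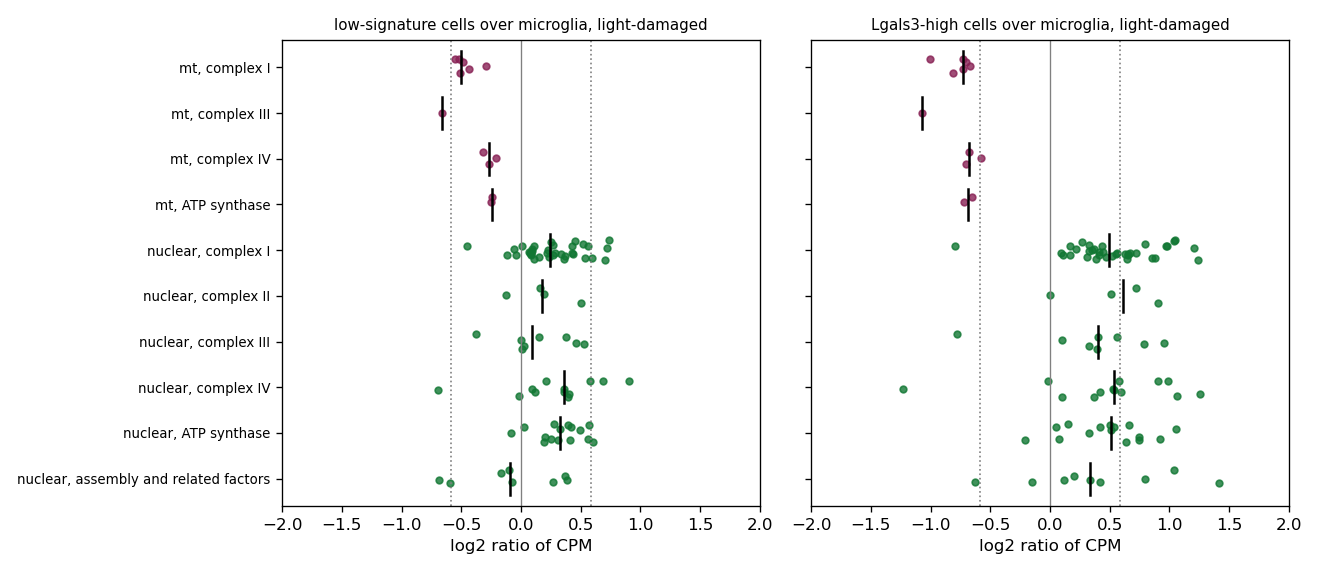
Log2 ratio of CPM (x axis) for each measured member by complex within the light-damaged library, low-signature cells over microglia (left) and Lgals3-high cells over microglia (right); mt-encoded members in purple, nuclear in green, black bars medians, dotted lines 1.5-fold. All measured mt-encoded members lie below 0 in both panels, with medians of -0.38 and -0.71, and the nuclear medians are 0.25 and 0.51.

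Muscle-type and tissue-restricted forms were low in most classes. Cox6a2 was at 12.3 CPM in control and 19.5 CPM in light-damaged microglia, where 156 of 3402 and 473 of 4401 cells had a UMI of it, and at 41.0 CPM in light-damaged Lgals3-high cells. In the 7 control Lgals3-high cells it had 11 UMIs, in 3 of the cells, which is 219.6 CPM. Cox7a1, another muscle form, had 53 UMIs in all kept control cells and 122 in all kept light-damaged cells.

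Other mitochondrial genes varied by list in Lgals3-high cells, where 32.8% of all genes were over 1.5-fold higher and 16.6% lower. Of 74 measured mitochondrial ribosomal protein genes, 51 were over 1.5-fold higher and 0 lower than in microglia, among them Mrps18b (97.6 against 27.7 CPM), Mrpl1 (36.8 against 11.9) and Mrps22 (27.0 against 9.19). Of 23 assembly factors and carriers, 12 were higher, including Tmem126b (41.8 against 17.2 CPM) and the gene of cytochrome c, Cycs (213 against 96.3), and 1 was lower, Higd2a (128 against 283). Of 27 import and membrane genes, 12 were higher and 0 lower, with Chchd10 at 124 against 6.19 CPM and the chaperone Hspa9 at 319 against 83.6. Sqstm1, an adaptor of selective autophagy, was the 1 of 11 dynamics and mitophagy genes past 1.5-fold, at 1212 against 182 CPM. Among 8 genes of mitochondrial transcription and biogenesis, 4 were higher, Tfam among them (33.0 against 20.6 CPM), and 1 was lower (Gabpb1, 13.5 against 21.6). Of 9 antioxidant and uncoupling genes 4 were higher, led by Irg1, the gene of the enzyme that makes itaconate (119.98 against 5.97 CPM), and Sod2, mitochondrial superoxide dismutase (191 against 76.6). Of 19 tricarboxylic acid cycle genes 4 were higher, such as Dld (72.7 against 33.7 CPM), and 2 were lower, Pdk1 (4.06-fold lower than its 44.6 CPM in microglia) and Suclg2 (27.5 against 43.5).

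The mt-encoded share was not spread evenly over Lgals3-high cells. Of the 170 cells, 61 (35.9%) had under 0.8% mt-encoded UMIs and 41 of these had under 0.4%, whereas the bins from 0.8% to 1.2% and from 1.2% to 1.6% held 10 and 14 cells and that from 2% to 2.5% held 28. Under 0.8% were 1.18% of light-damaged microglia and 6.59% of the 1062 low-signature myeloid cells with less Lgals3. The control library had 11.1% of its microglia under 0.8%, at a lower median share. The 0.8% limit was chosen after these values were seen.

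**Figure D5:**
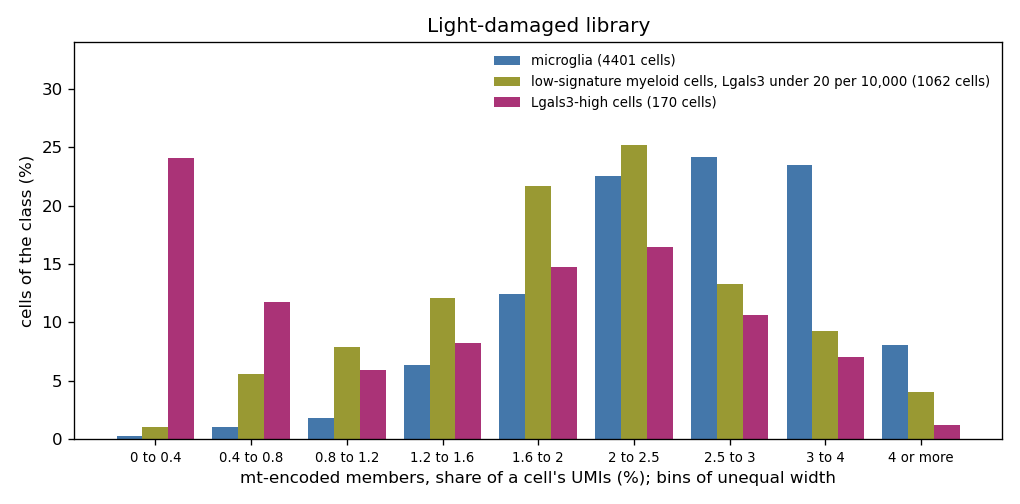
Cells of the light-damaged library by mt-encoded share of UMIs (x axis, %, bins of unequal width) as a percentage of their class (y axis), for microglia, low-signature myeloid cells with less Lgals3, and Lgals3-high cells. Of Lgals3-high cells 24.1% lie under 0.4%, against 0.204% of microglia and 1.04% of the other low-signature myeloid cells.

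The cells with little mt-encoded RNA were not shallow. Their median was 10851 UMIs and 3372 genes, against 13615 UMIs and 3012 genes in the other 109 Lgals3-high cells. Their mt-encoded sum was 2803 CPM (0.280% of UMIs) against 22893 CPM (2.29%), and all 12 measured mt-encoded members were over 1.5-fold lower, from mt-Nd5 (3.80-fold) to mt-Atp6 (9.50-fold). This contrast was fixed by the choice of cells. Their nuclear members summed to 17715 against 24969 CPM. The remaining Lgals3-high cells thus stood at 22893 CPM mt-encoded and 24969 CPM nuclear. Microglia, which were not cut by their mt-encoded share, stood at 27355 and 17484 CPM.

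Nuclear members differed among themselves in the cells with little mt-encoded RNA. Of 86 measured, 7 were over 1.5-fold higher and 28 lower than in the other Lgals3-high cells, while 61% of all genes were higher and 10.1% lower, and the median was -0.34 against 0.84 over all genes. Lower were for example Cox8a (545 against 919 CPM) and the small subunit genes Atp5e (224 against 605), Cox6c (242 against 612) and Ndufa13 (153 against 373). The assembly factor Ndufaf4 was higher, at 90.2 against 21.8 CPM, as was Sdhaf1, at 45.8 against 21.2 CPM. These members were named after their values were seen.

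The 2 sets of Lgals3-high cells also differed outside the members, in genes picked after the values were known. The stress-response transcription factor genes Ddit3 (1180 against 92.4 CPM) and Atf4 (1353 against 184) and their target Trib3 (237 against 13.7) were higher in the cells with little mt-encoded RNA, as was the macrophage elastase gene Mmp12 (569 against 170). The lipid carrier gene Apoe (6284 against 41321 CPM) and the lysozyme gene Lyz2 (3039 against 16765) were lower, and the 8 myeloid genes summed to 105 against 318 UMIs per 10000. Malat1 was at 22216 against 8074 CPM. The part of these differences in the mt-encoded share of the cells was not tested.

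The cells above 10% mt-encoded UMIs, which a usual filter would drop, were few. There were 55 in the control library, of which 26 were low-signature cells, 23 microglia and 6 in between, with a median of 1534 UMIs, and 11 of them had at least 20 rod UMIs per 10000. The light-damaged library had 22, with a median of 3947.5 UMIs. Without them the log2 ratio of the mt-encoded sum between the libraries was 0.70 in microglia, against 0.69 with them, and -0.17 in all low-signature cells, against -0.42.

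The promoters of nuclear members were searched for 2 elements known from respiratory chain genes, the palindromic site of the transcription factor Nrf1 and the ETS core of Gabpa, CCGGAAGT, on both strands, in RefSeq windows (GRCm38.p6) from 250 bases before to 50 after the gene start. Of the 96 nuclear members, 80 had a window. The Nrf1 site was found in 7 of them (8.75%), against 1.07% of all 27025 genes with a window, and the ETS core in 5 (6.25%), against 4.31%. A shorter Nrf1 element, TGCGCA, was searched as well and was found in 21 of the 80 (26.25%), against 8.79% of all genes. The Nrf1 holders were Ndufaf5, Ndufaf4, Atp5k, Cox6a1, Uqcrc1, Atp5g2 and Ndufa11, and the ETS holders Ndufs3, Uqcrh, Uqcr11, Atp5h and Cox8a. Of the 3 members over 1.5-fold higher in light-damaged microglia, Atp5g2 held the Nrf1 site. The windows of Atp5g3 and Cox7a2l held neither the Nrf1 site nor the ETS core. The windows of Atp5g2 and of Cox7a2l (chr17:83514284-83514583) lie inside the gene spans given below. The start used for them thus differs from the start of the span, where no search was made. A match describes letters only. The windows of Atp5g2 and of Uqcrh, whose microglial ratio was next to the limit, are shown as examples of the Nrf1 site and of the ETS core. They are written 5′ to 3′ on the minus strand, with that element in capitals.

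Atp5g2 (chr15:102670998-102671297): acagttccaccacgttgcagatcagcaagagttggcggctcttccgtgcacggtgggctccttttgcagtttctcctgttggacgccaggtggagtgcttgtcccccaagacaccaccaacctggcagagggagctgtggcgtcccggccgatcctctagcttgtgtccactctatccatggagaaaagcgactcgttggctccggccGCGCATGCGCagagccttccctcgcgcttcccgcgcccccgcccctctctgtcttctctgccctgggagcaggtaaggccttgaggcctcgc
Uqcrh (chr4:116075021-116075320): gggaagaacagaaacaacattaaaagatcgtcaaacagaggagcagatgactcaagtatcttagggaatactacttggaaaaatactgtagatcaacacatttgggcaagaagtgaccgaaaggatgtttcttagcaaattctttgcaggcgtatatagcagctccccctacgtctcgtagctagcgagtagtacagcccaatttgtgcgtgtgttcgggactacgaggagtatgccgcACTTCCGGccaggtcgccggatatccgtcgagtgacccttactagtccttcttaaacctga

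In GRCm38, the build that mm10 names, Cox7a2l (ENSMUSG00000024248) spans 83501918 to 83517330 of chromosome 17 (minus strand) and Cox5a (ENSMUSG00000000088) 57521274 to 57532426 of chromosome 9 (plus strand). Atp5g3 (ENSMUSG00000018770) spans 73908447 to 73911326 of chromosome 2 and Atp5g2 (ENSMUSG00000062683) 102662864 to 102672352 of chromosome 15, both on the minus strand. All 109 members are in the annotation of that build. Among nuclear members, 65 of 96 shared no 50-base word of their 3' end with another gene and 5 shared over 50% (Atp5l, Cox7c, Atp5h, Atp5g2 and Ndufs3), so that the counts of those 5 are uncertain; Cox7a2l shared none and Cox5a 1.20%.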

How the data were processed

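The authors deposited, for each of the 2 libraries, a matrix of whole-number UMI counts per gene and barcode that was not normalized. The submitters' processing notes name Cell Ranger 2.0.0 and mm10 and give no further steps. The protocol of light exposure stands with both samples in the labels, so the groups were taken from the sample descriptions.

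Barcodes with at least 300 genes were taken (all 4003 control and 6821 light-damaged barcodes). Scrublet in scanpy 1.11.5 marked 0 and 2 doublets by its own threshold, under 0.5%, so the highest scores were removed instead, 0.8% per 1000 barcodes (128 and 372 barcodes). UMIs were summed per library and class and scaled to CPM. Ratios carry exact conditional binomial intervals and shares Clopper-Pearson intervals (scipy 1.17.1). A gene was measured at 20 CPM in either side and counted past 1.5-fold; a count of 0 was set to 3 counts. The step was checked on simulated counts. With 1 library per group no test was made. Members, lists and rules were chosen with earlier results of these data known. Named were all mt-encoded members, 16 set nuclear ones, the 5 nuclear ones with most UMIs and up to 10 largest ratios per comparison. Alternatives covered cell filters, class limits, scaling and gene filters. GENCODE M21 (GRCm38) held 27645 of 27998 gene identifiers. Promoter windows come from RefSeq. Of the named genes, 1 is not reported here.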

Additional observations from a re-analysis of the deposited data

Results flagged for a closer look

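Of the mt-encoded members, 2 had opposite directions in microglia and in low-signature cells, each by over 1.5-fold, when the light-damaged library was set against the control. mt-Cytb had a log2 ratio of 0.69 in microglia and -0.94 in low-signature cells, and mt-Nd4 one of 0.70 and -0.62. In the low-signature cells with at least 20 myeloid UMIs per 10000 the ratios were -0.18 and -0.03. The difference between the classes was not tested.

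The cells between the class limits, with 10 to 20 signature UMIs per 10000, entered no comparison of sums. In the light-damaged library 2.59% of their UMIs were mt-encoded and 2.01% came from nuclear members, against 1.68% and 1.22% in the control library (799 and 167 cells).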

How the results depend on the processing

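The 12 sums and counts were computed again under other settings, which gave 123 values. Of these, 64 stayed within counting error or, for counts, within 1.5 times. Another 54 moved by more, the sums among them in the same direction, and 5 changed direction. All 5 changes of direction were of low-signature cells between the libraries; the cause was not tested. Values below are log2 ratios, mt-encoded before nuclear where both are given. With at most 10% mt-encoded UMIs per cell, microglia between the libraries had 0.704 (mt-encoded), low-signature cells -0.166 and 0.364, and low-signature cells over microglia -0.368 (mt-encoded). With cells of at least 3059 UMIs, microglia had 0.718 and 0.156 and low-signature cells -0.174 and 0.388. As a mean of CPM per cell, microglia had 0.613 and 0.162, low-signature cells -0.786 and 0.016, low-signature cells over microglia -0.314 and 0.156, and Lgals3-high cells over microglia -0.829 and 0.34. Scaled to nuclear-genome UMIs, the values were 0.702 and 0.190 for microglia, -0.354 and 0.193 for low-signature cells over microglia, and -0.754 and 0.356 for Lgals3-high cells, and 5 nuclear members passed 1.5-fold in microglia in place of 3. With class limits of 30 and 5, microglia had 0.717 and 0.135 with 5 members past 1.5-fold, low-signature cells -0.884 and -0.0072 with 12 members in place of 19, low-signature cells over microglia -0.478 (mt-encoded) with 17 members in place of 10, and Lgals3-high cells -0.761 and 0.404. Without cells of 5 or more rod UMIs per 10000, microglia had 0.720 and 0.159, low-signature cells 0.133 and 0.567 with 38 members, and low-signature cells over microglia -0.373 and 0.209. Without Lgals3-high cells in the other classes, low-signature cells had -0.375 and 0.254, and -0.280 and 0.163 over microglia with 6 members. Low-signature myeloid cells had 0.137 and 0.706 between the libraries with 57 members, and -0.376 and 0.192 over microglia; with under 20 rod UMIs per 10000 as well, a setting chosen after seeing the data, they had 0.277 and 0.777 with 67 members, and -0.376 and 0.194. The perivascular subset had 0.381 and 0.411. With no filter on low genes 5 members passed in microglia, and with a pseudocount of 10 CPM 6 passed in low-signature cells over microglia. Of the 31 genes followed in microglia, 9 of the 10 past 1.5-fold stayed past it in each of the 8 settings of cells and scaling; the exception was Atp5g2, at 0.57 to 0.62. No paired analysis was possible because each group has 1 library, and for the same reason none could be left out. Depth limited the 7 control Lgals3-high cells (50081 UMIs) most.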
